A study of Caenorhabditis elegans with 2 samples.

Results

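The 31 genes named rps- in Caenorhabditis elegans encode proteins of the small subunit of the cytoplasmic ribosome, though a choice by name need not hold all of them. They were examined in chromatin immunoprecipitation and sequencing (ChIP-seq) of C17E4.6, a protein tagged by CRISPR insertion of TY1::EGFP::3xFLAG in strain RW12293. A gene was a member if it was protein-coding in the WBcel235 annotation and its name began with rps- followed by a digit, which gave 31 of 19973 coding genes on the nuclear chromosomes. The rule uses the names and no measured value. The study had 1 group of 2 biological replicates. Each was a whole-animal sample of young adults at 62 hours, grown from synchronised starved L1 larvae and immunoprecipitated with an antibody to GFP. All animals carried the tag, and data from untagged animals or another control precipitation were not analysed here, so every comparison below is between genes within the same lists and no condition was compared. Whole worms mix all tissues, and binding in a few cells cannot be told apart from weak binding in many. The lists hold no expression values, so the labelled stage was not checked against marker genes.

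The small subunit carries 1 ribosomal RNA and a set of proteins, most of which are known from yeast and mammals to be needed to build it. It binds the messenger RNA, reads codons at the decoding centre and passes the RNA from an entry channel to an exit beside the platform. Ribosomal protein genes are among the most strongly transcribed genes of growing animals and are known to be transcribed in a coordinated way. In C. elegans many of them are trans-spliced: a short leader is joined to the RNA at a 3' splice acceptor, so the annotated 5' end of such a gene can be a splice site that lies downstream of the place where transcription starts. The large subunit genes, named rpl-, are the nearest comparable family and were the main set against which the rps genes were read.

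At 13 of the 31 rps genes, or 41.9% (95% Wilson interval 26.4% to 59.2%), a peak summit of the combined list lay in the promoter window, against 558 of all coding genes, or 2.79%. The window ran from 500 bp upstream to 200 bp downstream of the 5' end. Such genes are called marked here. The count depended on the width of the window. Between 250 bp upstream and 100 bp downstream 3 rps genes (9.68%) were marked, against 8.51% of rpl genes and 1.68% of coding genes. The combined list was pooled by the authors over both replicates and kept 1017 peaks at an irreproducible discovery rate (IDR) of 0.01 or less. Among the rpl genes 12 of 47 were marked, or 25.5% (15.3% to 39.5%), and the intervals of the families overlapped. Of the mitochondrial ribosome genes named mrps- or mrpl-, none was marked, with 0 of 29 mrps genes and 0 of 41 mrpl genes. These counts allow shares of up to 10.3% and 7.32%, which include the 2.79% of all coding genes. All intervals cover counting error only, and since neighbouring genes can share a peak, the genes of a family are not independent. The proportions of each family are drawn in the bar plot of gene groups.

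**Figure D1:**
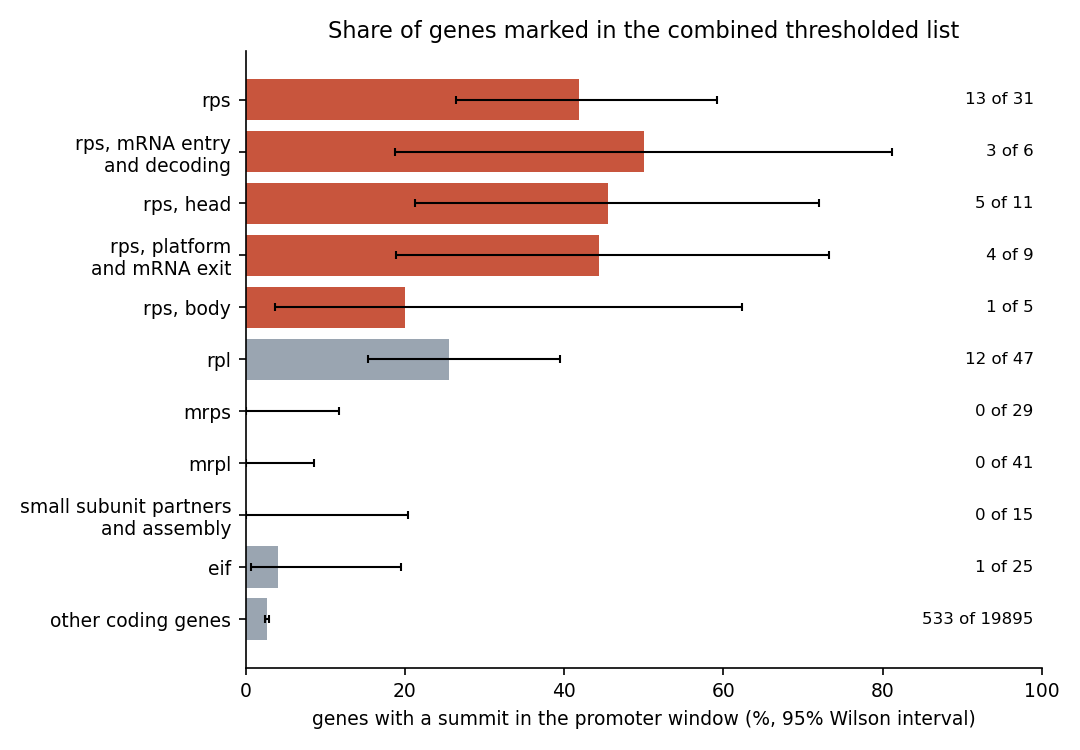
Percent of genes with a summit in the promoter window of the combined thresholded list (horizontal axis, from 0), for the rps genes, their structural groups and other gene sets. Bars are the share, black lines the 95% Wilson interval, and the numbers at the right the marked genes of all genes in the set. The rps bar reaches 41.9% and that of the other coding genes 2.68%.

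The bases under a peak summit show what the marked promoters hold. Each sequence here is 101 bases of the reference genome centred on the summit of the combined list, written 5' to 3' on the strand of the rps gene, from RefSeq's copy of the ce11 (WBcel235) assembly. The first 4 are members of high signal, the next 3 carry words that recur at other ribosomal protein genes, and the last carries a GC box. They lie at chrIII:4475605-4475705 on the plus strand (rps-1), chrIII:5679097-5679197 on the plus strand (rps-12), chrIV:385509-385609 on the plus strand (rps-24), chrIV:12391249-12391349 on the minus strand (rps-23), chrIII:4754312-4754412 on the minus strand (rps-0), chrIII:6375133-6375233 on the minus strand (rps-13), chrV:7776262-7776362 on the plus strand (rps-30) and chrIV:1659220-1659320 on the plus strand (rps-28). Capitals mark a word shared with another marked rps gene, except in rps-28, where they mark a GC box.
rps-1: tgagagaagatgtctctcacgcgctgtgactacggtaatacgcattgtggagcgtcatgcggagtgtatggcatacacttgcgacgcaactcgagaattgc
rps-12: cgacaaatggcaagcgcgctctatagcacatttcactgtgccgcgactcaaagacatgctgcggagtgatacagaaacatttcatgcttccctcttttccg
rps-24: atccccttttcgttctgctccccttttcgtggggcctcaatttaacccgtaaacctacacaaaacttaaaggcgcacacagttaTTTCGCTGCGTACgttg
rps-23: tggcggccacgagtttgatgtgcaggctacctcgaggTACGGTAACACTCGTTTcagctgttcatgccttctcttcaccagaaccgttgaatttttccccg
rps-0: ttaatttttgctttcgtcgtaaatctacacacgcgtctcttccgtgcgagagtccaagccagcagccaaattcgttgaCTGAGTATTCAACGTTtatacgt
rps-13: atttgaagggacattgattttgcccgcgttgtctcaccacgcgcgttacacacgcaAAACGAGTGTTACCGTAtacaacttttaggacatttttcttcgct
rps-30: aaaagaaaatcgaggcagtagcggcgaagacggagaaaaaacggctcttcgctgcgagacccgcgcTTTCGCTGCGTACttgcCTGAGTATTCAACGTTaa
rps-28: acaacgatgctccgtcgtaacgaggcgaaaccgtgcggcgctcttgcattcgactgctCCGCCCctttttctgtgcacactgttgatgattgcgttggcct

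The capitals in rps-0 and rps-30 are the same 16 bases, and those in rps-23 and rps-13 are the same 17 bases on opposite strands. Copies of both words at other ribosomal protein genes are shown here with 10 bases on each side, turned so that the word reads alike, with the word in capitals. The copies of the 16-base word lie at chrIII:4754309-4754344 (rps-0, minus strand), chrV:7776335-7776370 (rps-30, plus strand), chrIII:1950422-1950457 (rps-22, plus strand), chrIV:4390620-4390655 (rpl-7A, plus strand) and chrII:9057429-9057464 (rpl-32, plus strand).
rps-0: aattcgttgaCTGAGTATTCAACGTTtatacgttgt
rps-30: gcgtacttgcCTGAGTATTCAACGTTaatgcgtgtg
rps-22: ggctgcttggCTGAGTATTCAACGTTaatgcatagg
rpl-7A: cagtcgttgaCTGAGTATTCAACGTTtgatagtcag
rpl-32: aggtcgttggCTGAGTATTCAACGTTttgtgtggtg

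The copies of the 17-base word lie at chrIV:12391286-12391322 (rps-23, minus strand), chrIII:6375151-6375187 (rps-13, plus strand), chrIII:8130508-8130544 (rpl-21, plus strand), chrIV:12268554-12268590 (rpl-34, minus strand) and chrX:2242950-2242986 (rpl-11.2, plus strand).
rps-23: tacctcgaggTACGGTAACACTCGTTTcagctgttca
rps-13: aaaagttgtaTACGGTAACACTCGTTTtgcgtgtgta
rpl-21: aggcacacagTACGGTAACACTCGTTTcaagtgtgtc
rpl-34: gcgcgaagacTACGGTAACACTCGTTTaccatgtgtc
rpl-11.2: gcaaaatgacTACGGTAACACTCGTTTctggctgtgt

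The strongest rps peak lay at rps-1, whose protein (eS1 in the common naming of ribosomal proteins) sits on the platform of the subunit near the mRNA exit. Its signal was 209.8 in the combined list, rank 33 of the 1017 peaks, with 124.6 in replicate 1 and 87.4 in replicate 2. The signal is the authors' own value for a peak, on a scale that is not stated, and values of different lists are not on a shared scale. The summit lay 263 bp upstream of the rps-1 start, and both replicates placed theirs within 8 bp of it. The peak was past the threshold in each replicate alone.

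Of the other platform and mRNA exit genes, rps-0, rps-13 and rps-26 were marked. The product of rps-0 is the worm counterpart of human RPSA. It had a signal of 77.2 in the combined list, with 50.6 in replicate 1 and 25.1 in replicate 2, and its summit lay 311 bp upstream. At rps-13, which encodes the uS15 protein that binds the central domain of the ribosomal RNA, the signal was 59.7 in the combined list, with 26.3 in replicate 1 and 36.4 in replicate 2. It was the only one of the 12 members with a matching summit in each replicate whose signal was higher in replicate 2. At rps-26, whose yeast and mammalian counterparts touch the mRNA as it leaves the subunit, the signal was 72.0, with 43.4 in replicate 1 and 29.2 in replicate 2. Neither rps-13 nor rps-26 was past the threshold in a replicate alone, and both were in the combined list. A further summit lay 984 bp upstream of rps-26 with a signal of 37.0. The other 5 genes of the group (rps-7, rps-14, rps-21, rps-22 and rps-27) were unmarked.

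Among the 11 genes for proteins of the head, 5 were marked. The rps-19 gene, whose human counterpart is needed for maturation of the small subunit RNA and is mutated in Diamond-Blackfan anaemia, had a signal of 202.0 in the combined list, rank 37, with 118.0 in replicate 1 and 78.3 in replicate 2. The rps-12 gene, for the eS12 protein of the beak, had 171.9, with 109.9 in replicate 1 and 61.1 in replicate 2. These genes were past the threshold in each replicate alone, as was rps-1. At rps-20, for uS10, the signal was 90.9, with 56.2 in replicate 1 and 34.7 in replicate 2. At rps-28, for eS28, it was 68.5, with 49.3 in replicate 1 and 21.4 in replicate 2. Both rps-20 and rps-28 were past the threshold in replicate 1 alone and not in replicate 2 alone. The remaining marked head gene was rps-16, for uS9, whose tail reaches the tRNA in the P site, with a combined signal of 62.9. Its summit lay 122 bp downstream of the start, inside the gene, where replicate 1 had 44.8 and replicate 2 had no summit within 100 bp. The strongest replicate 2 summit in its window had a signal of 29.2 and lay 9 bp downstream of the start. Another gene on the same strand, fib-1 (fibrillarin, a methyltransferase of ribosomal RNA), ends within 500 bp upstream of rps-16.

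Of the 6 genes for proteins around the mRNA entry and the decoding centre, rps-15, rps-23 and rps-30 were marked. The rps-15 product, uS19, has a tail near the decoding centre, and its gene had a signal of 126.8 in the combined list, with 70.0 in replicate 1 and 61.6 in replicate 2. It was the remaining member past the threshold in each replicate alone. The rps-23 product, uS12, is part of the decoding centre. Its gene had 104.7 in the combined list, with 55.3 in replicate 1 and 47.9 in replicate 2, and was past the threshold in replicate 1 alone but not in replicate 2 alone. At rps-30, which encodes eS30, the signal was 58.9, the lowest of the 13, with 44.1 in replicate 1 and 15.8 in replicate 2. In the body of the subunit only rps-24 of 5 genes was marked, with 155.0 in the combined list, rank 86, and 96.1 in replicate 1 against 50.4 in replicate 2. It was past the threshold in replicate 2 (score 1000) and not in replicate 1 (score 647), although its signal was higher in replicate 1. The score here follows the IDR and reaches 1000 at most. With 5 to 11 genes in a group, the Wilson intervals of all 4 structural groups overlapped, from 3.62% to 62.4% for the body and 18.8% to 81.2% for the entry and decoding genes.

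Across the 13 marked members the combined signal ran from 58.9 to 209.8 with a median of 90.9, against a median of 148.5 for the 12 marked rpl genes and 87.9 for all 558 marked coding genes. The highest rps signal, 209.8, was below that of rpl-3, the strongest peak of the whole list at 435.3, and those of rpl-35 (326.3) and rpl-20 (313.3). Of their 13 summits, 10 had the highest possible score, as did 347 of the 454 summits in the promoter window of any coding gene. The median rps summit signal was 90.9, against 86.3 over those 454 summits.

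**Figure D2:**
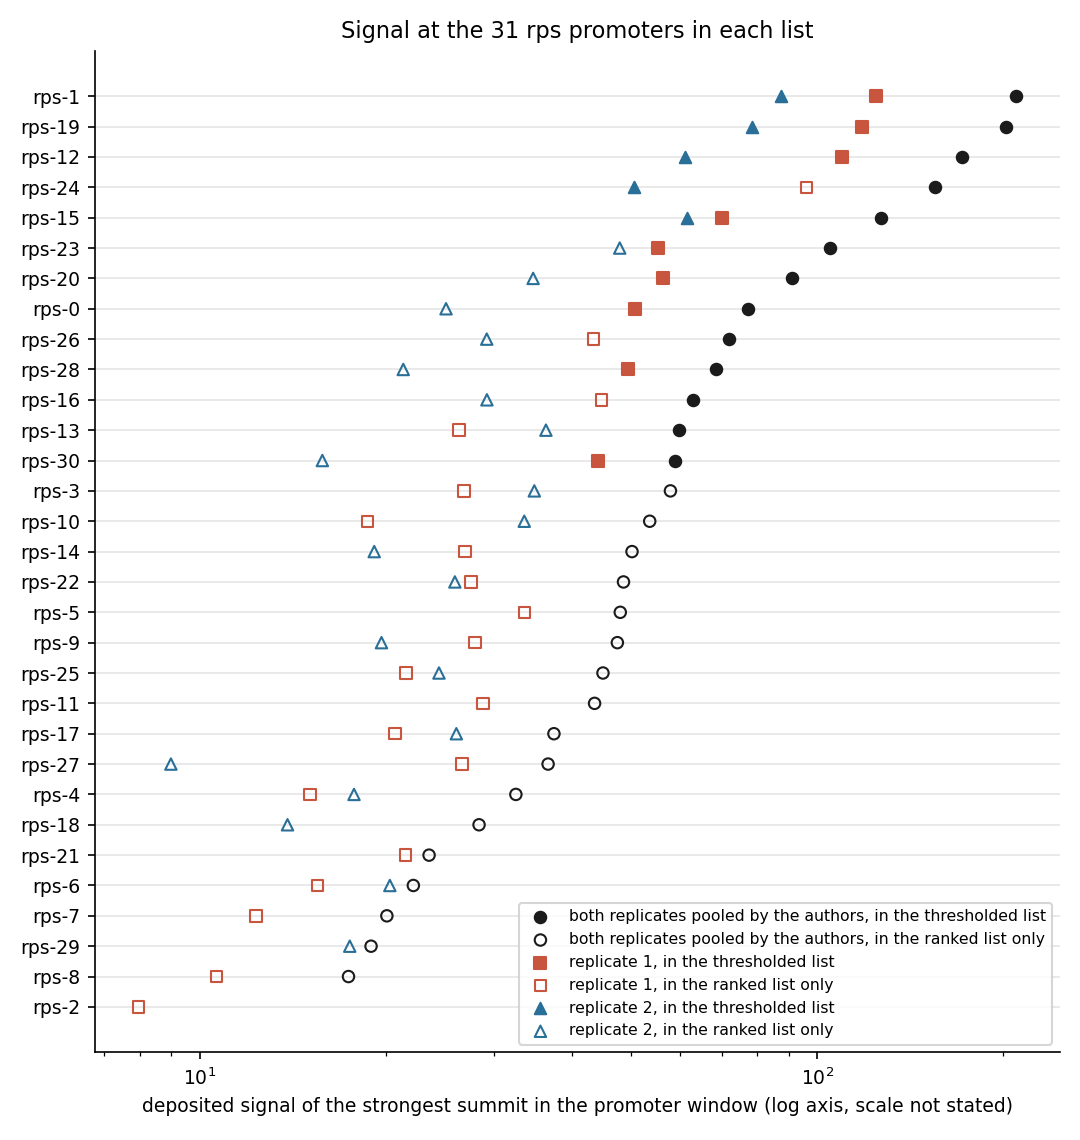
Deposited signal (horizontal axis, logarithmic, scale not stated) of the strongest summit in the promoter window of each of the 31 rps genes, ordered by the combined value. Circles are the lists pooled over both replicates, squares replicate 1 and triangles replicate 2, and filled symbols are peaks of the thresholded lists. The combined values of the 13 marked genes run from 58.9 to 209.8 and those of the unmarked genes from 17.4 to 57.8, and 4 genes have all 3 symbols filled.

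In the replicates taken singly, 9 rps genes (29.0%) had a thresholded summit in replicate 1, against 1.72% of coding genes, and 5 (16.1%) in replicate 2, against 1.34%. The 4 genes in both were rps-1, rps-12, rps-15 and rps-19, which is 12.9% of the family against 0.946% of coding genes. A further 5 were called in replicate 1 only (rps-0, rps-20, rps-23, rps-28 and rps-30), 1 in replicate 2 only (rps-24) and 3 in neither (rps-13, rps-16 and rps-26). In the authors' conservative list, 10 rps genes were marked (32.3%), against 2.66% of coding genes, and rps-13, rps-28 and rps-30 were absent. Of the 47 rpl genes, 10 were marked in replicate 1 (21.3%), 8 in replicate 2 and 8 in both. As a share of the family, the rps genes were thus above the rpl genes in replicate 1. They were below the rpl genes in replicate 2 and in both replicates together. These counts are small, so they do not settle the order of the families.

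Of the 13 rps summits, 12 had a summit within 100 bp in the ranked list of each replicate, where peaks of any score are kept. Replicate 2 gave the lower signal at 11 of these 12. The median log2 ratio of replicate 2 to replicate 1 was -0.65 at the rps summits, against -0.36 over the coding promoter summits and -0.33 over all summits. Replicate 2 had the lower values over the whole list, and whether the scales of the replicates can be compared is not stated. The members' strongest signals in the ranked lists of the replicates had a Spearman rho of 0.64 over the 23 members with a summit in both. It was 0.80 over the 13 marked members and 0.018 over the 10 unmarked ones. The marked members were set apart by an IDR threshold on these same data, so the split itself bears on this contrast. A rho over 10 genes is also too uncertain to tell whether the replicates share an order. These values describe genes that were immunoprecipitated together, not samples.

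Nearly all rps promoters held a peak when weak peaks were kept. In the combined ranked list, which keeps 65464 peaks of any score, 30 rps genes (96.8%) had a summit in the window, against 42.9% of coding genes, and rps-2 (uS5, at the mRNA entry) was the member without one. In the ranked lists of both replicates 23 rps genes (74.2%) had one, against 18.6% of coding genes. The rpl genes were alike in this, with 93.6% in the combined list and 70.2% in both replicates. The 17 unmarked rps genes with a ranked summit had a median signal of 37.5 and a median score of 212, against 25.1 and 67 over the 8015 unmarked coding genes with one. By group, the combined ranked signals of the unmarked genes were as follows. Those of the platform and exit ran from 20.1 at rps-7 to 50.1 at rps-14, with 48.6 at rps-22, 36.7 at rps-27 and 23.5 at rps-21. In the head, rps-10 had 53.5, rps-5 had 48.0, rps-25 had 44.98, rps-17 had 37.5, rps-18 had 28.3 and rps-29 had 18.9. In the body, rps-11 had 43.6, rps-4 had 32.5, rps-6 had 22.2 and rps-8 had 17.4. At the entry and decoding centre, rps-3 and rps-9 had 57.8 and 47.5. These values lie below those of all 13 marked genes.

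The first member outside the threshold was rps-3, whose product uS3 lines the mRNA entry channel. It had a combined signal of 57.8 and a score of 687, with 26.8 in replicate 1 and 34.8 in replicate 2, and was just below rps-30 (58.9, score 840), the last inside it. With the threshold relaxed to an IDR of 0.05 (a score of 540), rps-3 was added and the count was 14 (45.2%), against 4.32% of coding genes. The next members, rps-8 and rps-9, had scores of 531 and 530 with signals of 17.4 and 47.5. Reaching 1000 bp upstream left the thresholded count at 13, against 3.59% of coding genes, and with the relaxed threshold added rps-21, with a summit of score 687 at 954 bp upstream. From the unmarked members, the nearest thresholded summit lay 654 bp (rps-25) to 164060 bp (rps-8) away, with a median of 22256 bp.

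The rps summits stood well upstream of the annotated 5' end. At 12 of the 13 genes the summit was upstream, at distances from 151 bp (rps-12) to 444 bp (rps-26), and rps-16 was the exception. The median distance was -266 bp for the 13 rps genes, against -198.5 bp for all 558 marked coding genes, of which 89.1% had the summit upstream. Of the rps starts, 28 of 31 (90.3%) had AG, the last bases of a 3' splice acceptor, directly before the 5' end, against 27.6% of all coding genes. The full TTTCAG was directly before 15 (48.4%), against 12.3%. Anywhere within 50 bp of the 5' end it was found at 16 (51.6%), against 28.2%, a smaller contrast. The exceptions without AG were rps-22, rps-24 and rps-27. The AG was found at 12 of 13 marked and 16 of 18 unmarked members.

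The starts of rps-1, rps-12 and rps-28 show the acceptor, and those of rps-24, rps-27 and rps-22 lack it. The 25 bases before each 5' end and the first 5 of the gene are given on the gene's strand, with the last 6 bases before the 5' end in capitals. They lie at chrIII:4475893-4475922 (rps-1, plus strand), chrIII:5679273-5679302 (rps-12, plus strand), chrIV:1659666-1659695 (rps-28, plus strand), chrIV:385862-385891 (rps-24, plus strand), chrV:104073-104102 (rps-27, minus strand) and chrIII:1950510-1950539 (rps-22, plus strand).
rps-1: ttaaattatgtattcctatTTTCAGacaca
rps-12: acgagtcgaaatttctaatTTTCAGgtaag
rps-28: tctttataatttcaatttcTTTCAGgtaat
rps-24: ttttaaaactacaattcaaATTTATtttgc
rps-27: aaatatactatttattttcTCAATTcacat
rps-22: cgtgatttttaggtgatttTCTCCAttttt

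Many rps genes share their upstream region with a gene that runs the other way. For 19 of 31 (61.3%) the nearest opposite 5' end, facing away, lay within 1000 bp, against 28 of 47 rpl genes (59.6%) and 17.7% of all coding genes. Of the 19 head-to-head rps genes 10 were marked, and of the 12 others 3. Among rpl genes it was 6 of 28 head-to-head and 6 of 19 others, and among all coding genes 265 of 3539 and 293 of 16434. So a summit in such a region cannot be given to either gene by position. Taking only the coding gene with the nearest 5' end for each peak left 7 rps genes (rps-1, rps-13, rps-15, rps-16, rps-23, rps-24 and rps-28), or 22.6%, against 2.19% of coding genes by the same assignment. The rpl share by that assignment was 21.3%, close to the rps share.

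The other 6 lay nearer to the annotated 5' end of the neighbour. All 6 of these rps genes had AG directly before the annotated 5' end. Transcription of them may therefore start further upstream, and the assignment by nearest 5' end does not allow for this. At rps-19 the summit was 163 bp upstream of hsr-9, the worm counterpart of the DNA damage protein 53BP1. At rps-12 it was 142 bp upstream of ska-3, which encodes a subunit of the kinetochore SKA complex, and 151 bp upstream of rps-12. At rps-20 it was 133 bp upstream of ekl-4 and at rps-0 62 bp upstream of rbg-3. At rps-26 it was 13 bp upstream of tmem-107, a gene for a protein of the ciliary transition zone. The rps-30 peak lay 233 bp upstream of rpl-39, which encodes a large subunit protein at the exit tunnel, so a single peak counts for both families. Both rps-10 (facing rpl-24.1) and rps-14 (facing rpl-36) also face an rpl gene, and neither was marked.

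**Figure D3:**
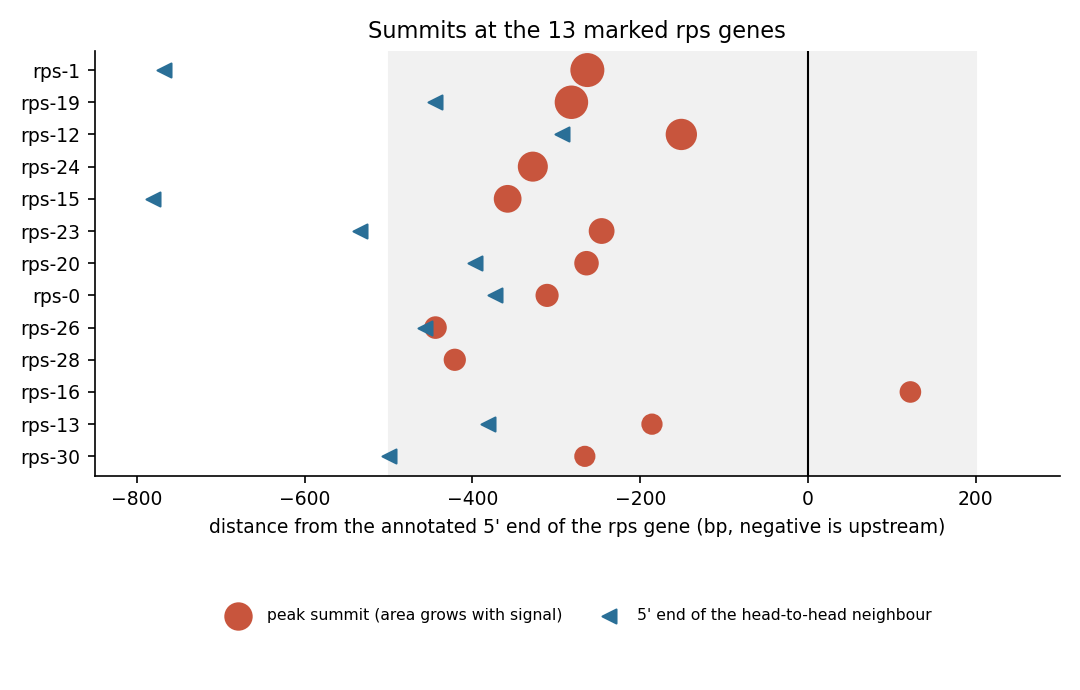
Distance in bp of the combined-list summit (circles, area growing with signal) and of the head-to-head neighbour's 5' end (triangles) from the annotated 5' end of each of the 13 marked rps genes (vertical line at 0), with the promoter window shaded. The summits at 12 genes lie 151 to 444 bp upstream, and that of rps-16 lies 122 bp downstream.

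Small noncoding genes also lie near these summits. At 4 of the 13 rps summits (rps-0, rps-1, rps-13 and rps-30) an annotated noncoding RNA gene lay within 50 bp, or 30.8%, against 10.8% of the 454 coding promoter summits and 13.6% of all summits. Small nucleolar RNA genes, which guide modification of ribosomal RNA, lay inside 3 marked members (4 genes) and 2 unmarked members (3 genes). The rps genes were short, with a median length of 756 bp, against 753 bp for rpl genes and 2027 bp for all coding genes.

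By chromosome, 4 of 8 rps genes were marked on I, 0 of 1 on II, 4 of 9 on III, 3 of 10 on IV and 2 of 3 on V, and X held none. The share of all coding genes was not computed by chromosome. The Wilson intervals were wide, as with 0.0% to 79.3% on II and 20.8% to 93.9% on V, so the chromosomes are not compared. Other genes of the pathway were counted from lists. Of 15 genes for small subunit partners and assembly, among them fib-1, rack-1, riok-1 and ncl-1, none was marked, a count that allows up to 3 of 15, against 2.79% of coding genes. Of 25 eif genes for translation initiation factors, only eif-3.C was (4.0%), with a signal of 109.3 at 240 bp upstream. Shares this near the background in lists this short say nothing about these genes as a set.

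The words seen under the summits were counted over all coding promoters. The search took every run of 12 or more bases present in the 151 bp windows of at least 2 marked rps genes, which found 8 words. It was made after the data had been seen and on the marked genes themselves, so the copies that defined a word, and the genes whose windows hold those copies, are left out of the counts that follow. Of the 8 words, 4 had no exact copy in the window of any rpl gene, and for 2 more the only such gene was rpl-39, which shares its window with rps-30. The remaining 2 are the words of 16 and 17 bases. The 16-base word of rps-0, rps-20 and rps-30 had 13 further exact copies in the genome, 4 of them within 100 bp of a thresholded summit. Some of the 13 lay in no coding promoter window, among them copies near summits of signal 327.1 and 292.7. The rest reached the windows of 7 further coding genes, of which 3 were marked, against 2.79% of all coding genes. These were ints-4, and rpl-7A and set-21, which share 1 copy and so are not separate cases. Of the 7, rps-22 was the rps gene and 3 were rpl genes (rpl-7A, rpl-13 and rpl-32). Unmarked rps-22 had a ranked signal of 48.6 with a score of 298.

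The 17-base word of rps-13 and rps-23 had 13 further copies, 3 of them within 100 bp of a thresholded summit. Some of the 13 lay in no coding promoter window, and the rest reached those of 17 further coding genes. Of these 6 were marked, against 2.79% of all coding genes. The 6 came from only 3 copies, each shared by 2 genes (npp-3 and top-2, rpl-21 and C14B9.10, pdtf-1 and T26A8.4). Of the 17, rps-10 was the rps gene and 4 were rpl genes (rpl-11.2, rpl-21, rpl-24.1 and rpl-34). The rps-10 gene faces rpl-24.1 and had a ranked signal of 53.5 with a score of 398. With up to 2 mismatches the 17-base word was also found at rps-7, rps-17 and rps-29, each at 16 of 17 bases, and the 16-base word at rps-3, at 15 of 16 bases. A 13-base word shared by rps-24 and rps-30 had 12 further copies, 4 within 100 bp of a thresholded summit, and none of these lay in the window of a coding gene.

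Either long word, with up to 2 mismatches, was in the promoter window of 6 of the 18 unmarked rps genes (33.3%), none of the 8 marked rps genes that had not been used to find the words, and 14 of 46 rpl genes (30.4%), against 81 of the 19963 coding genes left (0.406%). Among the 548 marked coding genes left it was in 19 (3.47%). The 0 of 8 is partly set by the search, since a marked rps gene with an exact copy under its summit counts as used. The window shared by rps-10 and rpl-24.1 counts in both families.

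**Figure D4:**
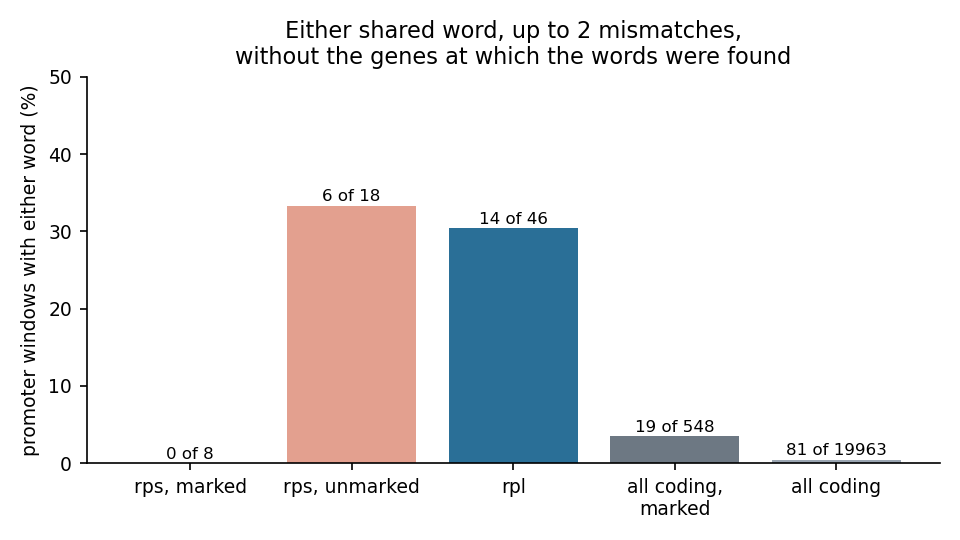
Percent of genes (vertical axis, from 0) whose promoter window holds either of the shared words of 16 and 17 bases with up to 2 mismatches, for marked and unmarked rps genes, rpl genes, all marked coding genes and all coding genes, without the genes at which the words were found. The unmarked rps bar reaches 33.3%, the marked rps genes left stand at 0 of 8, and all coding genes left stand at 0.406%.

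Windows at the summits were also searched for 7 known motifs, as runs of letters. Over 151 bp windows, searched on both strands, the E2F site (TTCCCGC or TTCGCGC, or with other letters TTGGCGC or else TTGCCGC) was found at 1 of 13 rps summits (7.69%), against 29.7% of the 454 coding promoter summits. The GC box (CCGCCC) was found at 3 (23.1%: rps-19, rps-28 and rps-30), against 8.81%. The E-box (CACGTG) was found at none, against 3.74%, the GA repeat (GAGAGAG) at none, against 9.03%, the site of EOR-1 (CTGCGTCT) at none, against 8.81%, and the DREF site (TATCGATA) at none, against 0.22%. A TATA box (TATAAA) was found at 1 (rps-0; 7.69%), against 7.93%. Over the promoters of all 31 rps genes, from 250 bp upstream to 50 bp downstream, the GC box was in 2 (6.45%), against 7.83% of coding promoters. The higher share at the summits thus rests on 3 windows and was not seen over the family. An E2F site and a GC box can overlap, and a match says only that the letters are there. With 13 windows, a motif found at none can still have a share of up to 23.1% by counting error alone, and the share over the coding promoter summits was below that limit for each motif at 0. The median GC content of the windows was 47.0% at the rps summits, against 45.7% at the coding promoter summits and 46.4% at all summits.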

How the data were processed

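Peaks of C17E4.6-EGFP came as 8 lists covering 2 biological replicates, on the ce11 assembly per the labels. The aligner and caller were not given in the sources used here. Each replicate had a ranked list and a thresholded list, and both replicates pooled by the authors had a combined and a conservative list of each kind. The deposited score rose with the −log10 irreproducible discovery rate that the authors gave in the ranked lists, and the thresholded lists began at a score of 830. The combined thresholded list lacked 70 peaks of its ranked list at that score. The deposited signal of each peak is on a scale that is not stated, and it was used only to describe and rank peaks within a list. The ranked lists pooled over replicates held 16 unlabelled value columns, which were left out. Read counts are not part of any list, and depth is therefore unknown. Intervals and limits cover counting error only, and for a count of 0 the limit is 3 counts of the total.

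Summits were set against the 5' ends of genes in Ensembl release 115 with Python 3.11.15, pandas 2.3.3, NumPy 2.4.6 and SciPy 1.17.1, and plots were drawn with matplotlib 3.10.9. Marked genes had a summit between 500 bp upstream and 200 bp downstream. Summits of different lists were matched within 100 bp. The window rule was tested on simulated data with 200 planted genes among 19973, of which 200 were recovered. Sequence came from the RefSeq copy of WBcel235. With 1 group no test between conditions was made and no p-value is given. The members, gene lists and motifs were chosen with earlier results of these data known, and the word search and the acceptor counts were chosen after seeing the data. All members are accounted for. Full values are given for marked members and those nearest the threshold, together with their head-to-head neighbours, the 3 strongest rpl genes and marked genes of the pathway lists. The alternatives were other lists, scores, windows, ways of giving a peak to a gene and matching distances, and leaving out each replicate.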

Additional observations from a re-analysis of the deposited data

How the results depend on the processing

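A count was taken as moved when it changed by over 1.5 times, and the median signal when it changed by more than 3.78, the SD of the replicates' own medians. Those medians (56.22 in replicate 1 and 61.56 in replicate 2) cover different marked genes, in lists without a shared scale. The limit of 3.78 therefore does not measure replicate spread. By these limits 14 of 22 alternatives over 5 results left the value in place and 8 moved it. The count of 13 marked rps genes ran from 5 to 9 with 1 replicate left out, 5 without replicate 1 and 9 without replicate 2, and so did the count with 1000 bp upstream. It was 3 (9.68%, against 1.68% of coding genes) with a window of 250 bp upstream to 100 bp downstream and 7 with each peak given to the nearest 5' end only. The conservative list gave 10 and a score of 540 gave 14. Restoring 70 peaks from the ranked list, a choice made after the data were seen, gave 13. The median signal of the marked members, 90.9, was 115.8 in the conservative list and 104.7 in the narrow window, where fewer genes were marked. The count of 23 rps genes in the ranked lists of both replicates was 5 at a score of 540 and 4 at 830. The 12 matched summits were 9 at 50 bp and 13 at 200 bp. No paired analysis was possible because there was 1 group.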
